A study of Homo sapiens with 36 samples.

Results

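The genes described here encode 10 subunits of the integrin family of adhesion receptors: ITGB3, its partner ITGAV, and ITGA2, ITGA3, ITGA5, ITGA6, ITGB1, ITGB4, ITGB6 and ITGB8. They were chosen by name, as the entries of the count tables whose Ensembl identifiers map to these symbols, and are 10 of the 63677 genes listed. All 10 had enough reads to be tested, together with 19180 genes in all. A549, an established human lung adenocarcinoma line, was grown in medium with serum, with IL-1β, an inflammatory cytokine, at 1 ng/ml or without it. Exposed cells were harvested on days 6, 15 and 21 of treatment, and again on days 6, 15 and 30 after the cytokine was removed, and untreated control cells were harvested with them at each of the 6 time points. Each of the 12 groups had 3 replicates, which the labels call biological, so 36 RNA-seq libraries were compared. All cells were of the same line and were split every few days, and no other cell line, animal or clone was sequenced here.

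An integrin is a pair of 1 alpha and 1 beta chain that spans the membrane, binds matrix proteins outside the cell and couples them to the cytoskeleton within. The beta chain recruits talin and kindlin, the alpha chain largely sets which ligand is bound, and a beta chain can be shared among several alpha chains. Among the alpha chains that share ITGB1 are ITGA2 (a collagen receptor), ITGA3 (laminin), ITGA5 (fibronectin) and ITGA6 (laminin). ITGAV pairs with ITGB3 and ITGB5 to bind vitronectin, fibronectin and related ligands, and with ITGB6 and ITGB8 to bind latent TGF-β. ITGB4 pairs with ITGA6 and anchors epithelial cells to laminin in hemidesmosomes.

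Upstream sequences are shown for ITGA2, ITGA5 and ITGB6, the members past both thresholds at some time point for which the RefSeq promoter table (GRCh38.p14) holds an entry. The table holds promoters of 7 of the 10 members, and ITGB3, ITGA3 and ITGB4 are named only. Each sequence runs 5′ to 3′ on the strand of the gene, is placed by its single match in GRCh37, and ends before the first base of the annotated gene. Capitals mark matches, on either strand, to 3 motifs: the AP-1 site TGANTCA, the E-box CAGGTG (the element bound by the Slug and ZEB repressors) and the NF-κB motif.
ITGA2 (chr5:52284932-52285169, plus strand): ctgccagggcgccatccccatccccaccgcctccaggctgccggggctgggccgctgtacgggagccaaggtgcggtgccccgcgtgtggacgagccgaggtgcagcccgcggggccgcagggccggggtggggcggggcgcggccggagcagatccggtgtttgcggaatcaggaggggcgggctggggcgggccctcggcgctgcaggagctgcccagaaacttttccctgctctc
ITGA5 (chr12:54813051-54813300, minus strand): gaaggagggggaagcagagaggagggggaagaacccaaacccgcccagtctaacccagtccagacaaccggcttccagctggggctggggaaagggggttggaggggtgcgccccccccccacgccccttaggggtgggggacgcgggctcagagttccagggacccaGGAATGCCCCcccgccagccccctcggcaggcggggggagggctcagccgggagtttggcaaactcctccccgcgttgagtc
ITGB6 (chr2:161056825-161057033, minus strand): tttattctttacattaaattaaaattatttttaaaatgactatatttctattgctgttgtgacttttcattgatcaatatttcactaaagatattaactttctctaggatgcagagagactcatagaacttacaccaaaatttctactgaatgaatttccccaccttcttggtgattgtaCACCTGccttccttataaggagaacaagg
The capitals in ITGA5 are 1 match to the NF-κB motif, at -82 to -73 from the RefSeq start. Those in ITGB6 are 1 E-box, read on the opposite strand, at -70 to -65. The ITGA2 sequence held none of the 3 motifs. No member with a promoter in the table had an AP-1 match within 250 bases, and ITGA6 had 2 E-boxes upstream of 1 of its starts. Of all 35116 promoters of the same length, 5.21% held the NF-κB motif, 17.5% the E-box and 6.57% the AP-1 site, and a match of letters is not a measure of binding.

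The libraries held 9116032 to 23570026 reads on genes. The epithelial keratins KRT7, KRT8 and KRT18 and the cadherin CDH1 were expressed in every library (at or above 27.5 CPM, the count scaled to library size), while the epithelial markers EPCAM and KRT19 had medians of 0.677 and 0.0522 CPM and 4 of the 5 alveolar or airway markers were under 1 CPM. Of 8 leukocyte and platelet markers 6 had medians under 1 CPM. CD3E and GP9 had 0 counts in every library, CD14 had a median of 5.19 CPM and the leukocyte integrin ITGB2 of 3.72 CPM, and the sum over the list ran from 4.12 to 15.2 CPM in control and from 5.33 to 24.3 CPM in IL-1β libraries. All 4 endothelial markers matched and 6 of 7 fibroblast markers had medians under 1 CPM, with sums of at most 0.405 CPM and 4.46 CPM. In 11 libraries, 6 of control and 5 of IL-1β cells, 11.8% to 24.6% of counts lay on mitochondrial genes, and 5.61% to 7.75% in the other 25. Of these 11, 8 were of replicate 2 and 8 were collected after withdrawal, and at days 6 and 15 after withdrawal only 1 control library was outside them. They are called high-mitochondrial libraries below. Values from fits without them, or with a yes-or-no covariate that marks them (the mitochondrial covariate), are given where a call changed. In bulk RNA, a change in each cell and a change in the share of cells that hold a transcript cannot be told apart.

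A gene was called where it differed from the control of its time point by more than a fold of 2 and had an adjusted p under 0.05 (edgeR's quasi-likelihood F-test, all 36 libraries in 1 model, Benjamini-Hochberg adjustment over the 19180 genes). ITGB3 was called higher at all 6 time points, and no other member was called at more than 3. At day 6 of IL-1β, ITGB3 and ITGA2 were called higher, 2 of 10 members against 1.52% of all genes tested, and 0 lower against 1.25%. At day 15, ITGB3 and ITGA2 were higher (2 of 10 against 1.94%) and ITGB4 was lower (1 of 10 against 2.3%). The largest number came at day 21, where ITGB3, ITGA2, ITGA5 and ITGB6 were higher, 4 of 10 against 2.19%, and 0 lower against 2.06%. After withdrawal, ITGB3, ITGA5 and ITGB6 were higher at day 6 (3 of 10 against 1.08%, and 0 lower against 0.725%). At days 15 and 30 after withdrawal, ITGB3 was the 1 member called higher, against 0.594% and 0.433% of genes, and 0 were lower against 0.36% and 0.464%. By the adjusted p alone the same members were called at each time point, where the background was 4.27%, 6.43% and 6.4% under IL-1β, then 2.62%, 1.36% and 1.31%. The median log2 fold change of the 10 members was 0.52, 0.35 and 0.37 at days 6, 15 and 21 and 0.40, 0.41 and 0.25 after withdrawal, beside medians between -0.021 and 0.023 over all genes tested. Leaving out replicate 1 took the number of members called at the 6 time points to 0, 2, 1, 1, 0 and 0, leaving out replicate 2 to 1, 3, 4, 2, 0 and 0, and leaving out replicate 3 to 2, 2, 2, 1, 1 and 1.

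**Figure D1:**
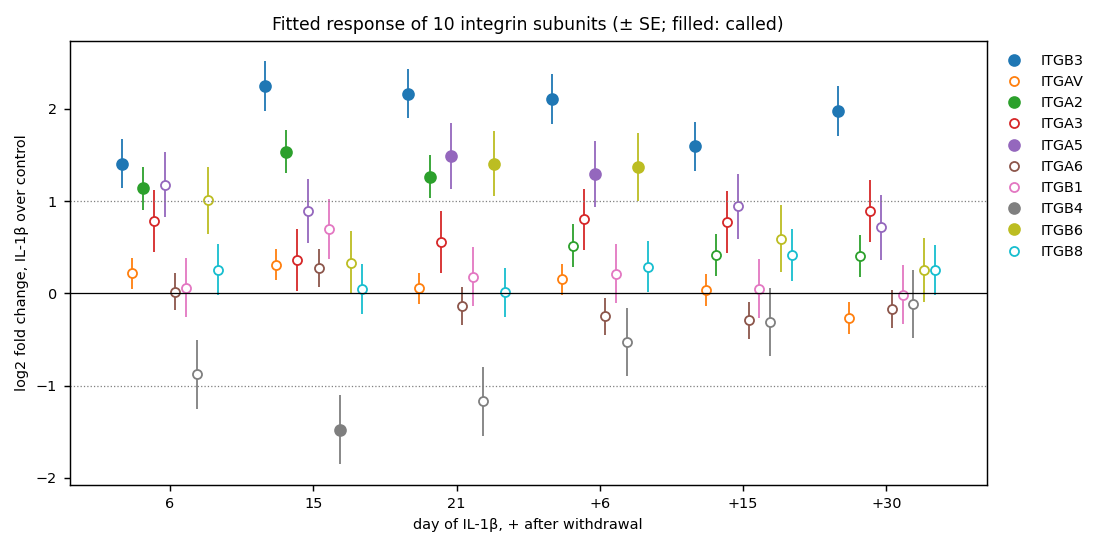
Fitted log2 fold change of each subunit, IL-1β over control, on the y axis by day of IL-1β and day after withdrawal (+) on the x axis. Bars are standard errors from edgeR, filled points passed both thresholds and dotted lines mark a fold change of 2. ITGB3 lay highest at every time point, from 1.41 to 2.25, and ITGB4 was the lowest during exposure.

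To set the subunits beside each other, CPM were divided by the length of each gene's annotated exons in kilobases. In control cells ITGB1 stood first with a median of 125 CPM per kb over 18 libraries (range 109 to 247). ITGB4 (57.5), ITGA3 (41.0), ITGA6 (17.2) and ITGAV (16.8) followed, and then ITGA5 (6.55) and ITGA2 (4.73). ITGB3 came eighth, at 1.01 CPM per kb (0.591 to 1.45), below every library of ITGA2 and above every library of ITGB6 (0.121) and ITGB8 (0.110). The libraries of ITGB4 and ITGA3, of ITGA3 and ITGA6, of ITGA6 and ITGAV, of ITGA5 and ITGA2 and of ITGB6 and ITGB8 overlapped, so these neighbours are not ordered. With the length of the canonical transcript in place of all exons, ITGB4 and ITGA3, ITGA6 and ITGAV, and ITGB6 and ITGB8 changed places, and ITGB3 stayed eighth. In the IL-1β libraries ITGB3 had a median of 3.77 CPM per kb, under the 17.3 CPM per kb of ITGAV. Among the 10 members, the lowest places were thus held by the beta chains ITGB3, ITGB6 and ITGB8, and the first by the beta chain ITGB1. ITGB5, a beta partner of ITGAV, was not among those ranked. Its median in control libraries was 218 CPM, against 6.89 CPM for ITGB3, neither divided by length.

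**Figure D2:**
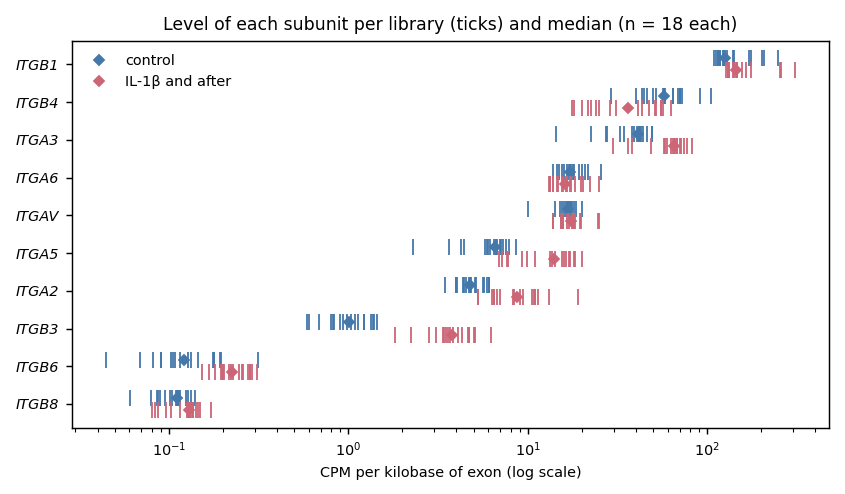
CPM per kilobase of exon of each subunit on a log x axis, 1 tick per library, 18 control and 18 IL-1β libraries (all 6 time points, after withdrawal included), with diamonds at the medians. The order in control cells runs from ITGB1 (125) to ITGB8 (0.110), and the ITGB3 ticks of the 2 treatments do not overlap.

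ITGB3 (ENSG00000259207, chromosome 17, 45331193 to 45391109 of GRCh37, plus strand) encodes the beta chain of the vitronectin receptor. Its CPM in the control replicates 1, 2 and 3 was 9.09, 7.39 and 4.14 at day 6, 6.68, 5.64 and 4.65 at day 15 and 8.32, 9.53 and 7.09 at day 21. With IL-1β it was 19.3, 22.9 and 12.5, then 25.2, 23.9 and 31.6, and 34.6, 34.0 and 42.7 at day 21. Every IL-1β library thus lay above every control library at each day of exposure, and the highest values of the series were those of day 21. After withdrawal, control cells had 7.74, 8.29 and 5.45 CPM at day 6, 9.42, 9.89 and 6.09 at day 15 and 6.40, 5.66 and 4.03 at day 30. Cells that had been exposed had 32.1, 32.1 and 27.9, 29.4, 26.3 and 21.1, and 24.5, 23.3 and 15.2. The groups did not overlap at any of the 3 days after withdrawal either. Replicate 3 was each time the lowest of the exposed libraries and also the lowest of the controls. Separation of all libraries at all 6 time points in this direction was seen for 1 of the 10 members and for 0.839% of all genes tested. The fold change was between 2.65 (day 6) and 4.75 (day 15), with standard errors of 0.27 on the log2 scale at each time point and adjusted p between 1.26e-06 and 0.000987 (edgeR quasi-likelihood, Benjamini-Hochberg). The libraries held 44 to 1041 counts of ITGB3.

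The calls of ITGB3 at days 15 and 21 of IL-1β held in all alternatives run. At day 6 they were lost without replicate 1 (adjusted p = 0.0625, edgeR) and without replicate 2 (0.0985). Those at days 15 and 30 after withdrawal were lost without replicate 1 (0.266 and 0.0983) and without replicate 2 (0.0944 and 0.0522), and with each time point fitted alone, as was that at day 6 after withdrawal (0.0968, 0.131 and 0.254, by edgeR). Without the high-mitochondrial libraries the log2 fold change at day 15 after withdrawal was 1.43 (adjusted p = 0.217, with 1 control library). In these alternatives the log2 fold change after withdrawal stayed between 1.43 and 2.47. A gene model of the same strand, ENSG00000259753, overlaps 33.2% of the ITGB3 exons. It had 0 counts in all 36 libraries. How many reads of the shared exons were set aside as ambiguous was not tested, and the strand setting of the counting is not given in the sources used here.

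**Figure D3:**
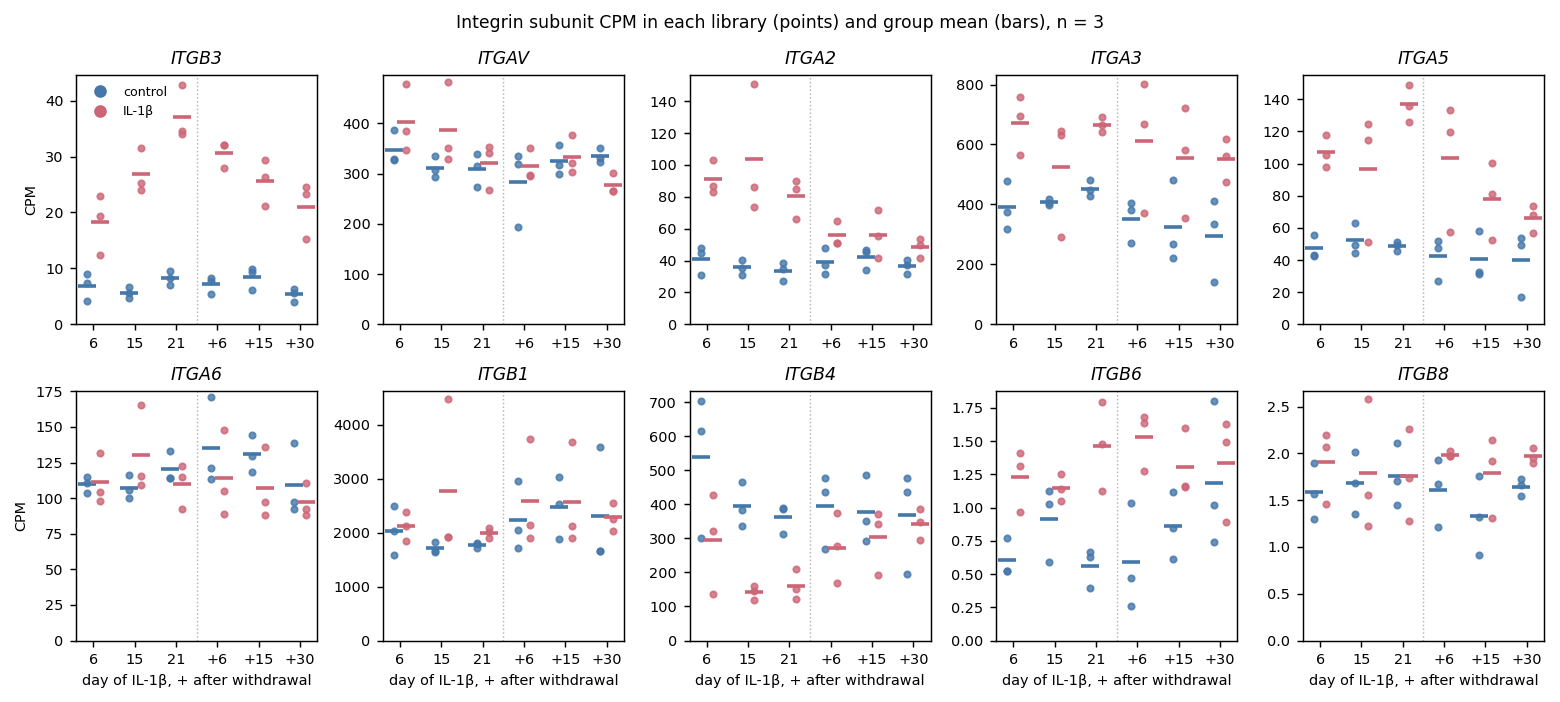
CPM of each subunit (y axes from 0, scales differ) by day of IL-1β and day after withdrawal (+), with 1 point per library, bars at the means of 3 replicates and a dotted line at withdrawal. The ITGB3 groups are apart at all 6 time points, ITGA2 lies apart during exposure, and ITGAV, ITGA6 and ITGB8 overlap at 5, 6 and 4 of the 6 time points.

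ITGAV (ENSG00000138448, chromosome 2, 187454737 to 187545628), the alpha chain that ITGB3 needs to reach the surface in cells without the platelet chain ITGA2B, was measured with 1503 to 8622 counts per library. Its CPM ran from 194 to 386 in control libraries (median 325) and from 265 to 483 in IL-1β libraries (median 335). The groups overlapped at 5 time points, and at day 30 after withdrawal all 3 exposed libraries (265, 266 and 302 CPM) lay below the 3 controls (323, 331 and 351 CPM). ITGAV was not called at any time point, with log2 fold changes between -0.27 and 0.31 and adjusted p between 0.367 and 1.00 (edgeR).

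The ratio of the pair was taken within each library, which removes library size. The ratios listed are of counts not divided by gene length. Length cancels only where treated and control ratios are compared. Per 100 ITGAV counts, control libraries held 2.36, 2.26 and 1.26 ITGB3 counts at day 6, 2.18, 1.93 and 1.38 at day 15 and 2.64, 3.48 and 2.09 at day 21. With IL-1β they held 5.02, 4.79 and 3.59, 7.20, 7.29 and 6.54, and 10.1, 12.7 and 12.1. The treated libraries were thus above all controls of their day, and those of day 21 were above those of day 6. At days 6, 15 and 30 after withdrawal the controls had 3.99, 2.60 and 1.63, 2.64, 3.30 and 1.92, and 1.98, 1.71 and 1.15. The exposed libraries had 10.9, 10.8 and 7.94, 9.17, 6.97 and 6.96, and 9.24, 8.74 and 5.03, again all above the controls. The response of ITGB3 exceeded that of ITGAV by 1.75 on the log2 CPM scale over the 3 days of exposure and by 1.89 over the 3 days after withdrawal. Both had p = 0.00025 (exact two-sided permutation test within time points, 8000 permutations, the smallest p they can give) and an adjusted p of 0.000409 over 18 such tests (exact permutation).

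**Figure D4:**
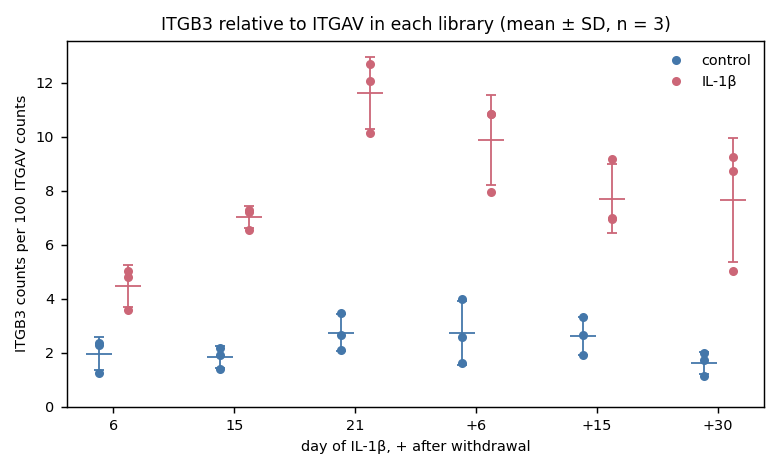
ITGB3 counts per 100 ITGAV counts (y axis) in each library by day of IL-1β and day after withdrawal (+), with means and SD of 3 replicates. The IL-1β libraries lie between 3.59 and 12.7 and above the controls of the same time point throughout.

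Against the other 8 members the ITGB3 response was larger in both phases as well, in 16 of 16 tests, with adjusted p up to 0.0155 (exact permutation within time points). The members were chosen with earlier results of these data known, so these p-values and those against ITGAV do not test a choice made beforehand. The difference was smallest against ITGA2 during exposure (0.63 on the log2 CPM scale) and against ITGA5 after withdrawal (0.85), and largest against ITGB4 during exposure (3.14). Without replicate 1 or replicate 3 the difference from ITGA5 after withdrawal was 0.79 and 0.73 and no longer passed (exact permutation p of 0.120 and 0.102). Without the high-mitochondrial libraries the difference from ITGAV was 1.79 and 2.07 in the 2 phases.

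ITGA2 (ENSG00000164171, chromosome 5, 52285170 to 52390609), the collagen-binding alpha chain, rose during exposure. Control libraries had 44.5, 48.1 and 31.3 CPM at day 6, 35.6, 31.3 and 40.2 at day 15 and 38.2, 34.8 and 27.2 at day 21. Those with IL-1β had 87.0, 103 and 82.8, 86.4, 73.8 and 151, and 89.8, 84.9 and 66.1. No treated library overlapped the controls of its day, and replicate 3 at day 15, a high-mitochondrial library, was the highest. The log2 fold change was 1.14 ± 0.23 (SE), 1.54 ± 0.23 and 1.26 ± 0.23 (adjusted p = 0.00216, 4.22e-05 and 0.000484, edgeR), and 1.17 at day 15 without the high-mitochondrial libraries. The calls at days 6 and 21 were lost without replicate 1 (adjusted p = 0.138 and 0.0869, edgeR). After withdrawal controls had 31.5, 47.7 and 37.5, 45.2, 46.9 and 34.1, and 31.9, 40.4 and 37.2 CPM. The exposed libraries had 51.1, 64.9 and 51.3, 55.3, 71.6 and 41.4, and 41.5, 53.4 and 49.8 CPM. They were apart from the controls at days 6 and 30 and overlapped at day 15, and the log2 fold changes of 0.52, 0.41 and 0.41 did not pass (adjusted p = 0.419, 0.688 and 0.707, edgeR).

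ITGA5 (ENSG00000161638, chromosome 12, 54789045 to 54813050, minus strand), the alpha chain of the classical fibronectin receptor, was called on day 21 under IL-1β and 6 days after withdrawal. Control libraries had 55.8, 42.7 and 43.4 CPM at day 6, 49.3, 44.4 and 63.0 at day 15 and 51.4, 49.5 and 45.6 at day 21. With IL-1β the values were 118, 105 and 98.0, 125, 115 and 51.0, and 149, 136 and 126. The groups were apart at days 6 and 21, and at day 15 replicate 3 with IL-1β, a high-mitochondrial library, lay among the controls. The log2 fold change was 1.18 ± 0.35 at day 6 (adjusted p = 0.0563), 0.89 ± 0.35 at day 15 (adjusted p = 0.157) and 1.49 ± 0.36 at day 21 (adjusted p = 0.00703, edgeR). After withdrawal controls had 47.6, 26.9 and 52.1, 57.8, 31.4 and 32.5, and 53.8, 16.9 and 49.1 CPM, and the log2 fold changes were 1.29 ± 0.36, 0.94 ± 0.35 and 0.72 ± 0.35 (adjusted p = 0.0439, 0.303 and 0.60, edgeR). The exposed libraries had 133, 57.5 and 119.7, 100.4, 52.7 and 81.3, and 73.3, 68.1 and 56.8 CPM, apart from the controls at days 6 and 30. ITGA5 moved with the mitochondrial share: control libraries of high share had 16.9 to 47.6 CPM and the others 43.4 to 63.0. Without the high-mitochondrial libraries ITGA5 was called at days 6, 15 and 21 (1.13, 1.20 and 1.51; adjusted p at most 4.67e-05) and at day 6 after withdrawal (1.29, adjusted p = 0.00160, with 1 control library), by edgeR. Leaving out replicate 1 or replicate 3 ended the call at day 21 (adjusted p = 0.186 and 0.101, edgeR), and leaving out any of the 3 ended that at day 6 after withdrawal (0.0539 to 0.791). Scaling by total counts alone ended both (adjusted p = 0.0579 and 0.133).

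ITGA3 (ENSG00000005884, chromosome 17, 48133332 to 48167845), an alpha chain for laminins, was not called at any time point. Its CPM ran from 141 to 482 in control libraries (median 402) and from 291 to 800 in IL-1β libraries (median 638), and the groups did not overlap at days 6 and 21 of IL-1β and day 30 after withdrawal. On the log2 scale it was higher by 0.79, 0.36 and 0.56 under IL-1β and by 0.80, 0.77 and 0.89 later, each with a standard error of 0.33 and an adjusted p between 0.288 and 0.603 (edgeR). Its level also moved with the mitochondrial share, at 141 to 380 CPM in high-mitochondrial control libraries and 318 to 482 in the others. Without these libraries the adjusted p was under 0.05 at days 6, 15 and 21 and at day 6 after withdrawal (0.00339, 0.00848, 0.0144 and 0.0333, edgeR) at log2 fold changes of 0.60 to 0.87, all under a fold of 2. The last of these rests on 1 control library, whose spread is taken from the other groups. With the mitochondrial covariate ITGA3 was called at day 30 after withdrawal (1.02, adjusted p = 0.0105, edgeR).

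ITGB1 (ENSG00000150093, chromosome 10, 33176201 to 33294720, minus strand), the shared partner of these 3 alpha chains, was not called. Its CPM ran from 1593 to 3591 in control and from 1846 to 4482 in IL-1β libraries, and the highest values of both groups were in high-mitochondrial libraries. Those libraries held 2046 to 3591 CPM in control cells, against 1593 to 2022 in the other controls, and 2091 to 4482 against 1846 to 2381 with IL-1β. The IL-1β libraries lay above the controls at days 15 and 21 and overlapped them at the other 4 time points. The log2 fold change was 0.70 at day 15 of IL-1β (adjusted p = 0.254, edgeR) and 0.17 without them. At the other 5 time points it lay between -0.017 and 0.21 (standard errors of 0.32), and at day 30 after withdrawal its sign turned under several alternatives. The alpha chains ITGA2 and ITGA5 were thus called at time points where ITGB1 was not, and the difference between their responses and that of ITGB1 was not tested.

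ITGB4 (ENSG00000132470, chromosome 17, 73717408 to 73753899), the beta chain of hemidesmosomes, was the 1 member called lower. Control libraries had 704, 615 and 302 CPM at day 6, 383, 335 and 467 at day 15 and 391, 313 and 387 at day 21. With IL-1β they had 426, 320.5 and 135, 161, 146 and 119, and 153, 122 and 209. The treated libraries were below all controls at days 15 and 21, and at day 6 replicate 3 was the lowest of both groups. The log2 fold change was -0.88 ± 0.37 (adjusted p = 0.282), -1.48 ± 0.38 (adjusted p = 0.0129) and -1.17 ± 0.37 (adjusted p = 0.0592) by edgeR. The call at day 15 was lost without replicate 1 (adjusted p = 0.199) and replicate 3 (0.141), and the value at day 21 passed by DESeq2's Wald test (adjusted p = 0.0272), with that day fitted alone (0.00228), with the mitochondrial covariate (0.0289) and in the fit blocked on replicate number (0.0256, edgeR). At days 6, 15 and 30 after withdrawal the controls had 478, 269 and 435, 486, 351 and 292, and 477, 195 and 437 CPM. The exposed libraries had 278, 168 and 374, 372, 193 and 343, and 348, 294 and 385 CPM. They overlapped the controls at all 3 days, with log2 fold changes of -0.53, -0.31 and -0.11 (adjusted p between 0.854 and 0.949, edgeR).

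ITGA6 (ENSG00000091409, chromosome 2, 173292082 to 173371187), the alpha partner of ITGB4, had 92.3 to 171 CPM in control and 87.8 to 166 CPM in IL-1β libraries. Its groups overlapped at all 6 time points, and the log2 fold changes of -0.29 to 0.28 did not pass (adjusted p between 0.517 and 1.00, edgeR).

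Among the TGF-β-binding beta chains, ITGB6 (ENSG00000115221, chromosome 2, 160956178 to 161056824, minus strand) was called at day 21 and at day 6 after withdrawal, on 2 to 36 counts per library. Control libraries had 0.523, 0.522 and 0.768 CPM at day 6, 1.12, 1.03 and 0.594 at day 15 and 0.627, 0.664 and 0.398 at day 21. With IL-1β they had 0.966, 1.32 and 1.41, 1.25, 1.05 and 1.14, and 1.79, 1.12 and 1.48. At days 6 and 21 the groups were apart, and at day 15 they overlapped. Controls after withdrawal had 0.258, 1.04 and 0.472, 0.844, 0.612 and 1.12, and 1.02, 1.80 and 0.738 CPM. The exposed libraries had 1.64, 1.28 and 1.68, 1.15, 1.60 and 1.16, and 1.63, 1.50 and 0.889, apart from the controls at days 6 and 15. The log2 fold change was 1.41 ± 0.35 at day 21 (adjusted p = 0.00980) and 1.37 ± 0.37 at day 6 after withdrawal (adjusted p = 0.0404), and between 0.25 and 1.01 at the other 4 time points, by edgeR. Both calls were lost without replicate 1 (adjusted p = 0.355 and 1.00) and without replicate 3 (0.167 and 0.436), and the second also without a filter on low counts (0.111) and with the time point fitted alone (0.632). A noncoding gene model on the same strand, ENSG00000285155, which is not among the genes of the count tables, overlaps 16.7% of its exons.

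ITGB8 (ENSG00000105855, chromosome 7, 20370325 to 20455377), the other chain of this kind, had 9 to 55 counts per library. Its 0.918 to 2.11 CPM in control and 1.22 to 2.59 CPM in IL-1β libraries gave log2 fold changes of 0.011 to 0.41, none called (adjusted p between 0.787 and 1.00, edgeR).

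Whether a response after withdrawal differed from that under IL-1β was tested as the difference between day 30 after withdrawal and day 21. None of the 10 members passed, against 0.626% of all genes, with 2 at an unadjusted p under 0.05 (edgeR), ITGA2 (-0.86 ± 0.33) and ITGB6 (-1.15 ± 0.49). Of all 19180 genes tested, 1160 had an unadjusted p under 0.05 here. The ITGB3 response differed by -0.19 ± 0.37 (adjusted p = 0.957), and ITGB4 by 1.06 ± 0.52 (adjusted p = 0.828). For ITGA5 the difference was -0.77 ± 0.49 (adjusted p = 0.955), and without the high-mitochondrial libraries it was -1.17 and passed (adjusted p = 0.00818, edgeR). DESeq2's Wald test called 0 members as well. Between days 21 and 6 of IL-1β, 0 members differed by the same rule, against 0.0104% of all genes, with ITGB3 the 1 at an unadjusted p under 0.05 (0.75 ± 0.37, adjusted p = 1.00, edgeR). An unadjusted p under 0.05 was seen there for 429 of all 19180 genes. A p that misses the threshold does not show that the responses were equal.

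Of 16 further integrin subunits, 12 were tested, and ITGA4, ITGA8, ITGA9 and ITGAD had at most 9 counts in a library. ITGA1, another collagen-binding chain, was called higher at day 15 (1.27 ± 0.31, adjusted p = 0.00933) and day 21 (1.05 ± 0.31, adjusted p = 0.0385), and the leukocyte chain ITGAX at day 6 (1.16 ± 0.32) and day 21 (1.02 ± 0.30), on at most 51 counts (edgeR). At day 15, ITGA1 had 23.3, 21.4 and 60.1 CPM with IL-1β, the last in a high-mitochondrial library, against 12.5 to 17.1 in control. Without these libraries its log2 fold change there was 0.64, under the fold of 2, and with the mitochondrial covariate it was 0.97 at day 15 and 0.88 at day 21. The call of ITGAX at day 6 was lost without them too (adjusted p = 0.0546, edgeR). At day 21 the calls of ITGA1 and ITGAX were lost whichever replicate was left out (adjusted p from 0.0916 to 0.411 and from 0.0938 to 0.599, edgeR). That of ITGAX was also lost with scaling by total counts alone (0.133) and without a filter on low counts (0.121). ITGB5, a beta partner of ITGAV, had an adjusted p of 0.0272 and 0.0257 (edgeR) at days 15 and 21 with a fold under 2 (-0.89 ± 0.25 and -0.89 ± 0.25). It had 231 ± 22.8 CPM in control and 125 ± 28.5 CPM in IL-1β libraries at day 21 (SD, n = 3). After withdrawal 0 of these 12 genes were called, with 3, 2 and 3 at an unadjusted p under 0.05 (edgeR), beside 1840, 1679 and 1602 of all 19180 genes. The median log2 fold change of the 12 genes over the 6 time points lay between -0.19 and 0.20.

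Ligands were represented by 35 genes, of which 29 were tested. During exposure 5, 3 and 7 of them were called higher and 3 lower at each day, and after withdrawal 3, 1 and 1 were higher and 3 lower each time, with medians between -0.12 and 0.27. TNC, which encodes the matrix glycoprotein tenascin-C, a ligand of several integrins, was called higher at all 6 time points, with 1.80 ± 0.321 CPM in control and 38.5 ± 2.76 CPM in IL-1β libraries at day 21 (4.42 ± 0.51) and 0.577 ± 0.511 CPM in control and 2.94 ± 1.70 CPM in IL-1β libraries at day 30 after withdrawal (2.60 ± 0.58, adjusted p = 0.0173, edgeR). The fibrinogen chains, ligands of the ITGB3 receptor, were the genes called lower during exposure. FGA had 14.1 ± 1.71 CPM in control and 0.493 ± 0.302 CPM in IL-1β libraries at day 21 and 34.2 ± 7.13 CPM in control and 9.94 ± 2.49 CPM in IL-1β libraries at day 30 after withdrawal, and was called lower at all 6 time points, as was FGB (20.2 ± 12.5 CPM in control and 2.80 ± 0.542 CPM in IL-1β libraries at that last time point). FGG was called at 4. FN1, the fibronectin gene, was not called under IL-1β (0.50 ± 0.25 at day 21) and was called lower at days 15 and 30 after withdrawal (-1.07 ± 0.26 and -1.74 ± 0.26, adjusted p = 0.0261 and 0.000291, edgeR). TGFBI, a secreted protein that binds integrins and collagen, was called higher at the 3 days of exposure (1.41, 1.32 and 1.42) and not after withdrawal (0.43, 0.12 and 0.047). The vitronectin gene VTN and the osteopontin gene SPP1 were not called at any time point, with log2 fold changes of -0.29 and -0.17 at day 21.

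Of 8 hemidesmosome genes 6 were tested, and 2, 2 and 2 were called higher during exposure and 2, 0 and 0 after withdrawal, with 0 lower. The genes were COL17A1, a transmembrane collagen of hemidesmosomes (1.89 ± 0.46 at day 21), and LAMB3, which encodes a chain of an epithelial laminin that ITGA6 with ITGB4 and ITGA3 with ITGB1 bind (2.73 ± 0.36). The laminin alpha chain gene LAMA3 was not called (-0.54 ± 0.22 at day 21, adjusted p = 0.191, edgeR), nor were the plakins PLEC and DST or the tetraspanin CD151. At day 15, LAMB3 and COL17A1 were higher while ITGB4 was lower and ITGA6 was not called.

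Adaptors inside the cell were mostly not called. Of 38 genes 37 were tested, and NEDD9, a docking protein of focal adhesions, was called lower at days 6, 15 and 21 and at day 6 after withdrawal (-1.98 ± 0.22 at day 21, with 61.9 ± 5.27 CPM in control and 15.7 ± 2.94 CPM in IL-1β libraries). TNS1 was called higher once (1.50 ± 0.37 at day 6 after withdrawal, adjusted p = 0.0194, edgeR). Talin (TLN1) and kindlin-2 (FERMT2), which bind the beta chains, had log2 fold changes of 0.53 ± 0.22 and 0.38 ± 0.22 at day 21 and were not called. The median over the 37 genes lay between 0.14 and 0.21 at the 6 time points.

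Membrane partners were tested for 11 of 12 genes, and 3, 2 and 4 were called higher during exposure and 3, 2 and 1 after withdrawal, with 0 lower. The tetraspanin CD82 was called at 5 time points (3.24 ± 0.40 at day 21), the heparan sulfate co-receptor SDC4 at 4 (1.70 ± 0.33) and PLAUR, the urokinase receptor, at 2 (1.16 ± 0.21). L1CAM, an adhesion molecule that binds ITGAV with ITGB3, was not called at days 6 and 15 and was called at day 21 and at all 3 days after withdrawal, where its log2 fold change was 2.05 ± 0.37, 1.91 ± 0.37 and 1.53 ± 0.36 (adjusted p = 0.00106, 0.00406 and 0.0244, edgeR). The background beside these counts is that given for the members. Of the 66 calls of single genes in these lists over the 6 time points, 22 held in every alternative run and 13 were lost without the high-mitochondrial libraries. Among the latter were those of TNC at day 15 after withdrawal (1.30, adjusted p = 0.672, edgeR), of FGA and L1CAM at days 15 and 30, of FN1 at day 15 and of TNS1 and FGG at day 6 after withdrawal, and of NEDD9 at day 6 of IL-1β (-0.89). At days 6 and 15 after withdrawal 1 control library was left in that fit.

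**Figure D5:**
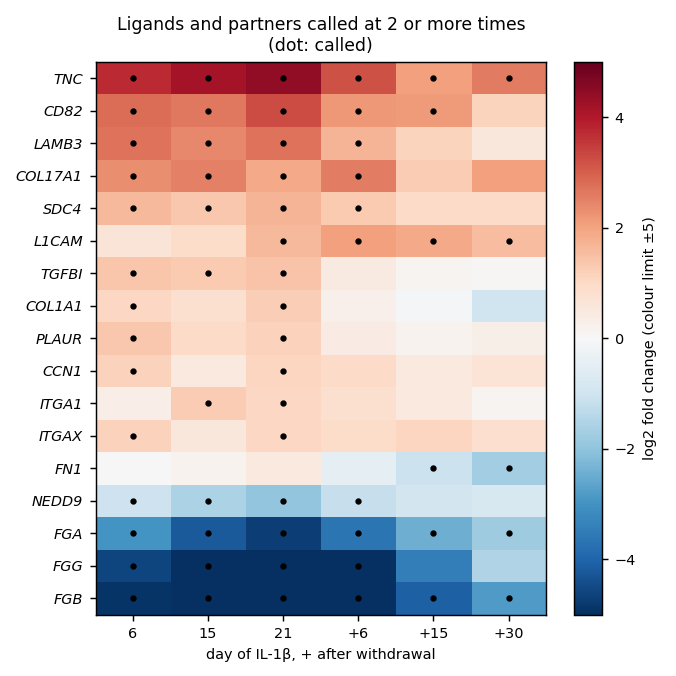
Log2 fold change of the listed ligand, adaptor, partner and other subunit genes called at 2 or more time points, IL-1β over control, by day of IL-1β and day after withdrawal (+). Colour is cut at 5 in either direction and dots mark calls. TNC lies at the top with calls at 6 time points, and the fibrinogen genes FGA, FGG and FGB at the bottom.

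The genes whose log2 CPM ran most like that of ITGB3 over the 36 libraries were TSPAN7 (Pearson r 0.951), DSE (0.949), HK1 (0.949), FSTL1 (0.948) and ABLIM3 (0.948), among 19179 genes. The libraries differ in treatment and in mitochondrial share, and neither was removed before the correlation, so these are descriptions. Among the members r was 0.75 for ITGA2, 0.73 for ITGA5, 0.63 for ITGA3 and 0.61 for ITGB6, 0.14 for ITGAV and -0.56 for ITGB4.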

How the data were processed

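Per the labels and the study's methods, RNA of A549 cells was made into libraries with a stranded mRNA kit and sequenced as single-end reads. The submitters' processing notes name bcl2fastq 2.17, TopHat2 2.0.14, Bowtie2 2.2.5, HTSeq 0.6.1 and the build GRCh37, and the strand setting and annotation release are not given in the sources used here. The deposited values are read counts per Ensembl gene, not normalized by the authors, in 1 table for each of the 36 libraries. Summary lines of the counter were left out of library sizes (8.48% to 18.6% of reads on no gene, 2.62% to 4.18% ambiguous).

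Symbols and coordinates were matched by identifier to GENCODE v44lift37 for 55665 of 63677 genes. Genes were filtered with filterByExpr, scaled by TMM and fitted with edgeR 4.0.16 (R 4.3.3) on the 12 groups, with 24 residual degrees of freedom, by the quasi-likelihood F-test with Benjamini-Hochberg adjustment. A call needed an adjusted p under 0.05 and a log2 fold change beyond 1. CPM used the same scaling, and log2 CPM a prior count of 2. DESeq2 1.42.0 was an alternative. Ratios were tested by exact permutation within time points (scipy 1.17.1, numpy 2.4.6 and pandas 2.3.3 under Python 3.11.15). The fitting script was checked on simulated counts.

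All 10 members are named whatever their values. The members and gene lists were chosen with earlier results of these data known, as was the split by mitochondrial share (over 10% of counts). Between 9116032 and 23570026 counts per library set the precision, which for ITGB6 and ITGB8 is limited by at most 55 counts. Other scalings, filters, tests, time points fitted alone, the replicate number as a block, libraries left out and other gene lengths were tried as alternatives, and the gene lengths were chosen after seeing the data. Protein sequences were not analysed here, and 1 gene of the lists is not reported here.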

Additional observations from a re-analysis of the deposited data

Results flagged for a closer look

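The test of the difference between the responses at day 30 after withdrawal and at day 21 of IL-1β, which none of the 10 members passed, was passed by 8 of the 29 ligand genes tested (edgeR quasi-likelihood, Benjamini-Hochberg). Of all 19180 genes tested, 0.626% passed it. The response was lower after withdrawal for FN1 (-2.23 ± 0.36 SE on the log2 scale, adjusted p = 0.000946, edgeR), COL1A1 (-2.22 ± 0.41, adjusted p = 0.00406, on at most 64 counts), LAMB3 (-2.16 ± 0.49, adjusted p = 0.0254), LTBP1 (-1.47 ± 0.34, adjusted p = 0.0270) and TGFBI (-1.37 ± 0.18, adjusted p = 3.80e-05). It was higher after withdrawal for the fibrinogen genes FGB (3.55 ± 0.80, adjusted p = 0.0249) and FGA (2.95 ± 0.64, adjusted p = 0.0197), which were lower at both time points, and for LAMA3 (1.31 ± 0.31, adjusted p = 0.0342). TNC, called at the same 6 time points as ITGB3, was not among them. Its fitted response was still smaller later, 2.60 (log2) 30 days after withdrawal against 4.42 with 21 days of IL-1β. Missing the threshold thus does not show that TNC held its response. The later of these 2 TNC calls was lost with its time point fitted alone (adjusted p = 0.694, edgeR). It was also lost without replicate 1 (0.829) and without replicate 2 (0.285).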

How the results depend on the processing

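Of 720 alternative log2 fold changes of the members, 655 kept their direction and their side of the thresholds, 28 fell short of a threshold, 15 newly passed and 22 turned sign. All 28 belong to the 14 called values, which had 154 alternatives, and 19 of them came with a replicate left out (42 alternatives). Called in every alternative run were 3 of the 14, ITGB3 at days 15 and 21 and ITGA2 at day 15. The 22 that turned sign belong to values of at most 0.25 on the log2 scale, with no adjusted p under 0.209 (edgeR or DESeq2). Of 126 alternative values of the ITGB3 ratios, 124 kept their call. The cause of these changes was not tested. In control cells, ITGB3 per 100 ITGAV in CPM per kilobase was 6.05, and 2.53 by canonical transcript lengths and 9.05 without the exons ITGB3 shares, where the lengths themselves set the difference.

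The number of members called was 2 at day 6, 4 at day 21, and 3, 1 and 1 at days 6, 15 and 30 after withdrawal. With each replicate left out it ran from 0 to 2, 1 to 4, 1 to 2, 0 to 1 and 0 to 1. With each time point fitted alone (6 libraries) it was 0, 0 and 0 after withdrawal. Without the high-mitochondrial libraries it was 0 at day 15 after withdrawal, where 1 control library is left and is assumed to vary like the other groups, and 1 (ITGA5) for the difference between day 30 after withdrawal and day 21. With the mitochondrial covariate it was 2 at day 30 after withdrawal (ITGB3 and ITGA3). Among the counts of the other gene lists, 251 of 330 stayed within 1.5 times.

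The deviations of same-numbered libraries correlated between -0.34 and 0.72, above 0.1 in 14 of 18 pairs. All 3 pairs were above it under IL-1β at day 21 and on day 30 after withdrawal, and not at the other 4 time points. The highest correlations, 0.70 and 0.72, were nevertheless at day 6 after withdrawal, beside -0.11 for replicate 1. What same-numbered libraries share beyond their label was not tested. With the replicate number as a block, ITGA5 was added at day 6 (3 members in place of 2, adjusted p = 0.0164, edgeR) and ITGB4 at day 21 (5 in place of 4, adjusted p = 0.0256), and ITGB1 at day 30 after withdrawal was 0.036. No other call of a member changed under this block.

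Signs turned for ITGB1 at day 30 after withdrawal (-0.017) with total counts (0.17), no filter (0.0027), without the high-mitochondrial libraries (0.38), with the covariate (0.080) and with replicates left out (-0.22 to 0.36). ITGB1 also turned at day 21 with the covariate (-0.022) and at day 15 after withdrawal with replicates left out (-0.17 to 0.24). ITGAV was -0.036 and -0.18 at days 6 and 15 after withdrawal without the high-mitochondrial libraries, and -0.014 to 0.27 and -0.14 to 0.12 with replicates left out. ITGB8 was -0.043 and -0.0033 at days 15 and 21 with total counts and -0.26 at day 15 without the high-mitochondrial libraries, and -0.26 to 0.31 and -0.056 to 0.068 with replicates left out. With replicates left out, ITGA6 at day 6 ran from -0.067 to 0.084, ITGB4 from -0.32 to 0.091 and ITGB6 from -0.025 to 0.48 at day 30 after withdrawal, and the ITGB3 difference between day 30 after withdrawal and day 21 from -0.41 to 0.017. Fits of single time points give no difference between time points and were not run for it.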
